A study of Mus musculus with 3 samples.

Results

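C6 is one of 13 clusters that the study made of donor CD4+ T cells from the spleen, and its cells carry the transcripts of dividing T cells. Its members were the cells that the authors' table places in cluster 6, without the cells marked as TEa T cells, which carry a transgenic TCR against a recipient alloantigen. There were 658 such cells among 10091 CD4+ cells, and a further 27 TEa cells of C6 were left out. The recipients were B6D2F1 mice, a cross of the B6 and DBA/2 strains, that were irradiated and received a bone marrow transplant (BMT) with B6 bone marrow, B6 T cells and a small number of TEa T cells, so that the donor T cells meet the alloantigens of the DBA/2 parent. Every recipient thus carried the graft-versus-host reaction, and no group was free of alloantigen. The 3 groups received daily saline, a low dose (5 mg/kg) or a high dose (50 mg/kg) of cyclosporine A (CSA), with the first injection on day 0 and the last on day 6, and splenic donor T cells were sorted on day 7 for single-cell RNA and TCR sequencing. Each group had 6 mice, and the cells of 2 mice were combined and marked with 1 hashtag antibody, which gave 3 pools per group and 9 pools in all. Each group was 1 droplet capture, so treatment and capture cannot be told apart, and p-values measure the spread between pools that share a capture. C6 held 443 cells with saline, 181 with CSA at 5 mg/kg and 34 with CSA at 50 mg/kg.

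CSA binds cyclophilin A and blocks calcineurin, the calcium-dependent phosphatase that lets NFAT enter the nucleus after the TCR is engaged. A T cell that answers alloantigen leaves quiescence, copies its DNA in S phase with the MCM helicase and the polymerases, and then divides with the help of condensins, kinesins and the spindle checkpoint. Mki67 encodes Ki-67, which coats mitotic chromosomes, Top2a encodes the topoisomerase that untangles them, and Cd226 encodes the activating receptor DNAM-1.

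The cycling part of the name held and the Cd226 part did not hold at every dose. Levels here are counts of unique molecular identifiers (UMIs) of a gene relative to all C6 UMIs of the pool (CPM), without further scaling. In order of dose, Mki67 in C6 was at 2726 ± 28.5, 3942 ± 529 and 3019 ± 805 CPM (SD, n = 3 pools), the highest mean of the 13 clusters in each group. The next cluster was C5 at 1458 CPM with saline and 617 with 5 mg/kg, and C3 at 524 with 50 mg/kg. Top2a was at 1529 ± 70.4, 1307 ± 45.0 and 1316 ± 314 CPM, again first in each group, ahead of C3 at 655, 613 and 657. Cd226 was at 195 ± 7.94 CPM with saline, where C0 (256 ± 33.2) and C5 (218 ± 30.1) stood above C6. With 5 mg/kg Cd226 was at 264 ± 25.4 CPM and C6 ranked first, and with 50 mg/kg it was at 33.4 ± 31.8 CPM from 5 UMIs in all and C6 ranked 8th. The cluster is therefore called C6 below. These genes were among those clustered, so their ranks describe the cluster and were not tested.

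Some genes of other lineages were at 0 in C6, while Cd8b1 and the summed myeloid and B cell lists were not. Each C6 cell held at least 1 Cd4 UMI and none held a Cd8a UMI, and the same was true of the other CD4+ cells, so both genes mark how CD4+ cells were picked and are not read as results. No Cd8a UMI in the summed counts allows up to 1.11, 5.24 and 24.5 CPM in the 3 groups in order of dose, for counting error only. Foxp3, the factor that defines regulatory T cells, gave 17, 7 and 0 UMIs. This was 7.09, 13.4 and 0 CPM, against 8.14, 5.51 and 9.05 in the other CD4+ cells. Cd8b1 was at 94.4, 148 and 29.0 CPM in C6 and at 159, 89.9 and 23.2 in the other CD4+ cells. The B cell genes Ms4a1 and Pax5 were at 0 in C6 of every group. A list of 16 myeloid genes summed to 331 to 357 CPM in the saline pools, 371 to 745 with 5 mg/kg and 516 to 759 with 50 mg/kg, while the macrophage gene Adgre1 (F4/80) stayed at 0. In the other CD4+ cells the same list was at 558, 563 and 504 CPM on average. The B cell list was at 161, 135 and 178 CPM in C6, the NK cell list at 53.6, 52.0 and 70.3 with Ncr1 at 0, and the erythroid list at 4.28, 20.9 and 40.4 with Alas2 at 0. Within C6 only 1 B cell gene, 1 NK cell gene and 0 erythroid genes had enough counts to be tested, and neither of the former passed at either dose. Of 11 dissociation genes Hsp90aa1 fell with 5 mg/kg. Egr1 passed as higher with 50 mg/kg, where 5.88% of C6 cells held its UMIs, against 13.8% with saline. Of the T cell list Cd3d and Lat passed with 50 mg/kg (0.67 and 0.95), and Cd8b1 passed with 5 mg/kg (0.70), on the log2 scale in the tests described below. Cd4 also passed with 5 mg/kg (0.57), but it marks how cells were picked, and its call is not read as a result.

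The C6 cells of CSA recipients were shallower and held more mitochondrial transcripts than those of saline recipients, in the opposite direction to other CD4+ cells for depth. In order of dose, the median C6 cell had 5675, 2536 and 2548.5 UMIs, against 2934, 4534 and 6008 in the other CD4+ cells. Pool medians ran from 5277 to 6092 UMIs with saline, from 2451 to 2619.5 with 5 mg/kg and from 2317.5 to 2982 with 50 mg/kg, so the CSA pools did not overlap the saline pools. The median share of mitochondrial UMIs went from 1.93% to 4.82% and 6.04% in the same order, against 1.67%, 1.59% and 1.66% outside C6. Cells with at least 5% mitochondrial UMIs made up 1.35%, 48.6% and 61.8% of C6. In C3 and C5, the other clusters that the study calls cycling, this was 0.226%, 2.18% and 0.613%. A TCR was read in 86.0%, 60.4% and 70.9% of C6 cells. The mitochondrial measures were higher at each higher dose, while depth and TCR recovery set both CSA groups below saline without following the dose. Their part in the results below was not tested, so the main counts are also given for C6 cells under 5% mitochondrial UMIs and for cells of 2000 to 5000 UMIs. Among the C6 barcodes, 2 were also found in the CD4+ cells of another capture.

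**Figure D1:**
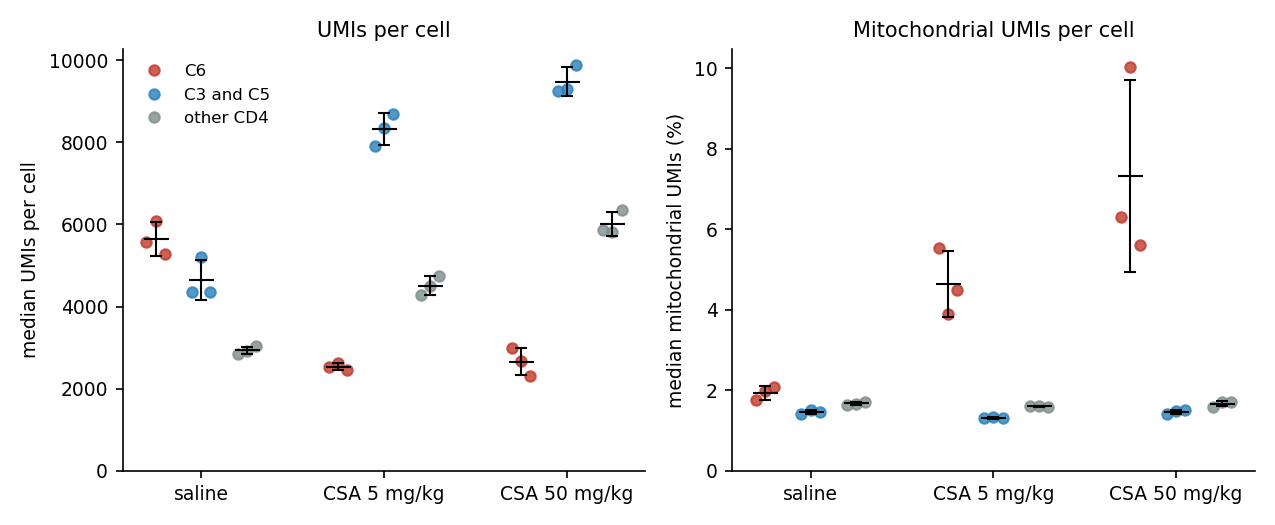
Depth and mitochondrial content of C6 cells (red), C3 and C5 cells (blue) and other CD4+ cells (grey). Each point is the median of 1 pool, with the mean and SD of a group in black, in UMIs per cell or in percent of UMIs from mitochondrial genes; the C6 pools of both CSA groups lie at 2317.5 to 2982 UMIs and at 3.90% to 10.0% mitochondrial UMIs, against 5277 to 6092 UMIs and 1.75% to 2.08% with saline.

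C6 shrank with dose. It made up 10.7%, 10.4% and 11.6% of CD4+ cells in the saline pools, 7.77%, 6.00% and 4.91% in the 5 mg/kg pools, and 1.32%, 0.693% and 1.31% in the 50 mg/kg pools. The groups did not overlap, and the means were 10.9% ± 0.646, 6.23% ± 1.44 and 1.11% ± 0.359 (SD, n = 3). The fall with dose gave an exact two-sided Jonckheere-Terpstra permutation p of 0.00119, the smallest that 9 pools allow, and 0.00238 after Benjamini-Hochberg adjustment over 4 trends. An exact permutation test of 3 pools against 3 cannot go below 0.1, which was the value for each CSA group against saline. For cells under 5% mitochondrial UMIs, the C6 share of CD4 cells was on average 10.8%, 3.60% and 0.436%. Shares of a whole do not move alone, and fewer C6 cells and fewer cells that still carry the genes that define C6 cannot be told apart.

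Within the cycling clusters the balance moved away from C6. Of the cells in C3, C5 and C6, C6 held 54.5%, 48.4% and 48.7% in the saline pools, 33.8%, 25.5% and 21.5% with 5 mg/kg, and 3.81%, 2.25% and 3.88% with 50 mg/kg. The means were 50.5% ± 3.43, 26.9% ± 6.29 and 3.31% ± 0.921, with the same exact permutation p of 0.00119 and adjusted p of 0.00238. The groups again did not overlap, and C6 went from about as many cells as C3 and C5 together to a small minority of dividing cells. Of the UMIs of mitosis and replication genes in C6, the mitotic share was 63.0%, 63.5% and 64.0% with saline, 70.2%, 69.5% and 66.2% with 5 mg/kg, and 72.8% and 66.1% in both 50 mg/kg pools with at least 10 C6 cells. Every CSA pool lay above every saline pool, but the trend had an exact permutation p of 0.0607 (adjusted 0.0810), where the smallest possible was 0.00357.

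**Figure D2:**
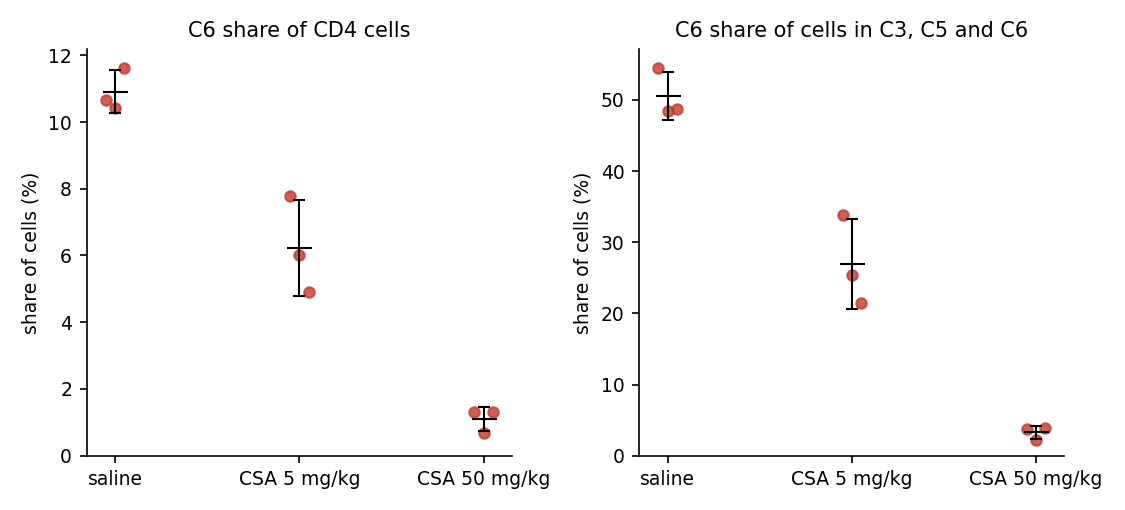
C6 as a share of CD4+ cells and of the cells in C3, C5 and C6 (percent), by dose. Each point is 1 pool, with the mean and its SD in black; the saline pools lie at 10.4% to 11.6% of CD4+ cells, the 5 mg/kg pools at 4.91% to 7.77% and the 50 mg/kg pools at 0.693% to 1.32%.

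Against the other CD4+ cells of the same pools, C6 was set apart by genes of DNA replication and mitosis. For this and for the tests below, counts were summed over the C6 cells of each pool, and the 8 pools with at least 10 C6 cells were used, since replicate 2 of the 50 mg/kg group had 7. Levels from here on are CPM after TMM scaling, which balances the pools over all genes. Of 9171 genes measured, 982 (10.7%) were higher in C6 in every pool and 1502 (16.4%) were lower in every pool. The cluster was made from these genes, so the counts and folds describe it and carry no test. Of 70 mitosis genes 51 were higher in every pool, and of 72 replication genes 35 were, with median log2 differences of 1.79 and 1.19 against -0.01 over all genes. The groups differed in this: in the saline pools all 72 replication genes were higher in every pool (median 1.69), and in the 5 mg/kg pools 51 were higher and 7 lower (median 0.71), while the mitosis medians were 2.13 and 1.47. Of all genes, 31.4% were higher and 32.6% lower in every one of the 3 saline pools. In the 3 pools of 5 mg/kg these shares were 28.8% and 35.8%. Mki67 led the 20 largest differences at 2907 ± 645 CPM against 287 ± 28.1 (SD, n = 8), a log2 difference of 3.32 ± 0.16 (SE). Ncapg2, a condensin subunit, was at 224 ± 71.3 against 24.4 ± 4.17 CPM. Aspm, a spindle pole protein, differed by 2.89, and Anln, Cit and Kif14, which act when the cells part, differed by 2.99, 2.80 and 2.77 on the log2 scale.

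The rest of the 20 largest differences are given gene by gene. Brca1, which acts in repair of broken DNA by homologous recombination, was at 117 ± 38.3 CPM in C6 and 12.6 ± 2.81 outside. Its partners Bard1, Brca2 and Brip1 differed by 2.86, 2.88 and 2.71, and Fancd2 and the glycosylase Neil3 by 2.95 and 2.76. E2f7 and E2f8, repressors that switch off S phase genes, differed by 3.24 and 2.69. Mastl, a kinase that keeps the mitotic state, differed by 3.17, Espl1, the separase that cuts cohesin, by 2.93, Ticrr, which fires replication origins, by 3.03, Stil, needed to copy centrioles, by 2.89 and Arhgap11a by 2.71. Ulbp1, a ligand of the receptor NKG2D, differed by 2.92.

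Mki67, Espl1 and Arhgap11a are shown with the bases next to their transcription start, because genes used in late cell cycle often carry a CHR element (TTTGAA) near a CCAAT box. They were picked from those of the 20 leading genes that hold both motifs in these bases. E2f8 holds both as well and is not shown. The promoters are RefSeq starts on GRCm38.p6, printed 5′ to 3′ on the gene's strand as the last 150 bases before the start, with the CHR and CCAAT letters, on either strand, in capitals.
Mki67, chr7:135716380-135716529 (minus strand): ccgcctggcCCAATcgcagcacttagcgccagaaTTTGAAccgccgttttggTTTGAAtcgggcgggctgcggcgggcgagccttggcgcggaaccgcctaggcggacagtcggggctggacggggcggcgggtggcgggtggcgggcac
Espl1, chr15:102296143-102296292 (plus strand): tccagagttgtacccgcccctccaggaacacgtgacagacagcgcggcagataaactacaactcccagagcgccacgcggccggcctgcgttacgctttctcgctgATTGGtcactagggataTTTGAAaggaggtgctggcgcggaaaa
Arhgap11a, chr2:113848662-113848811 (minus strand): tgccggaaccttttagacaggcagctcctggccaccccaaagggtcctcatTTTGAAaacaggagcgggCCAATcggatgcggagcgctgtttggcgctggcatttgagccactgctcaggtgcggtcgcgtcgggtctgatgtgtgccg

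Searched on both strands of the 250 bases before the start, TTTGAA was found in 36.8% of the 19 promoters matched among the 20 leading genes, CCAAT in 68.4% and both in 26.3%. Over all 32851 promoters of the table the shares were 16.0%, 33.8% and 5.55%, and over promoters of genes measured in these cells 10.6%, 35.6% and 4.09%. For the mitosis list they were 45.3%, 73.4% and 40.6%, and for the replication list 15.4%, 60% and 12.3%. A match is a string of letters, and whether a factor binds there was not measured.

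Genes lower in C6 than in other CD4+ cells of every pool included many of ribosomes, respiration, interferon response and quiescence. Of 89 ribosomal protein genes 87 were lower in every pool (median -1.55), of 87 nuclear genes of oxidative phosphorylation (OXPHOS) 67 were lower (median -1.08), and of 31 interferon-stimulated genes 16 were lower and 1, Gbp3, was higher (median -0.95). Of 27 quiescence and memory genes 15 were lower and none higher (median -0.88). By group, the ribosomal median was -1.01 in the saline pools and -2.03 in the 5 mg/kg pools, and the nuclear OXPHOS median -0.60 and -1.55. Slfn5, a Schlafen family gene, showed the lowest ratio, at 8.02 ± 6.28 CPM in C6 and 73.8 ± 32.0 outside. Ifi27l2a, an interferon-stimulated gene, was at 386 ± 97.3 against 2268 ± 826 CPM and Isg15 at 37.4 ± 17.7 against 150 ± 45.0. Id3, an inhibitor of E proteins, was at 19.3 ± 9.83 against 127 ± 27.4 CPM, and Tcf7, the factor of memory and stem-like T cells, at 57.9 ± 46.7 against 200 ± 87.5. Rflnb, Rgs10, Ccl4, Ifi213, Rps15a and Rpl37 completed the 10 lowest, with log2 differences of -2.78, -2.23, -1.97, -1.94, -1.92 and -1.90.

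The 13 protein genes of the mitochondrial genome leaned the other way, mainly in the CSA pools. Over the 8 pools, 8 were higher in C6 in every pool (median 0.64), while none of the nuclear OXPHOS genes was. In the saline pools alone the median was 0.18 (range -0.23 to 0.33), with 8 genes higher and 2 lower in every pool, and in the 5 mg/kg pools it was 0.93 with all 13 higher. Over the same 3 pools, 31.4% of all genes were higher and 32.6% lower with saline, and 28.8% and 35.8% with 5 mg/kg. Receptor lists were mixed. Of 27 activation receptor genes 4 were higher in every pool and 1 lower, beside 10.7% and 16.4% of all genes. Of 17 inhibitory receptor and Tox genes 1 was higher and 2 lower (median -0.32), and of 20 homing genes 5 and 5. Against C0, 1 of 27 activation and none of 15 inhibitory genes were higher in every pool. Among the genes higher than in the other CD4+ cells, Tfrc, the transferrin receptor of growing cells, differed by 1.98, Havcr2 (TIM-3) by 1.33 and Il12rb2 by 0.99. The integrin chains Itga4 and Itgb1 differed by 1.44 and 0.83 and Cxcr4 by 1.27, each of these higher in every pool. Ccr7 and Cxcr5, receptors for homing to T cell zones and follicles, differed by -1.51 and -1.39 and were lower in every pool. Effector genes leaned lower: of 24 none was higher in every pool and 7 were lower (median -0.47), beside 10.7% and 16.4% of all genes. Il2 differed by -3.05, Ltb by -1.61, Ccl5 by -1.14 and Srgn by -1.16. Gzmb was at 1134 ± 625 CPM in C6 and 867 ± 353 outside, higher in 7 of 8 pools.

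Most replication genes were higher in C6 than in C5 in every pool, while against C3 their median lay below that of all genes under both scalings. Against C5, 792 of 5739 genes (13.8%) were higher in every pool and 978 (17%) lower, and 47 of 60 replication genes were higher (median 1.66), Pcna among them at 147 ± 43.5 against 45.9 ± 7.59 CPM. Against C3, 1104 of 6839 genes (16.1%) were higher and 1383 (20.2%) lower, and replication genes leaned lower, 20 of 72 in every pool against 6 higher. Their median against C3 was -0.28, where that of all genes was 0.05. With scaling by library size alone it was 0.13, where that of all genes was 0.45. Mitosis genes were higher than in C3 for 29 of 70 genes and lower for 8, and than in C5 for 27 of 69 and lower for 10. Mki67 stood 2.05 above C3 and 1.82 above C5 on the log2 scale, while Ccnb2, the cyclin of mitotic entry, was at 189 ± 117 CPM in C6, 265 ± 35.7 in C3 and 581 ± 160 in C5. Nuclear OXPHOS genes were lower in C6 in every pool for 74 of 85 genes against C3 and 60 of 81 against C5. Ppia, which encodes the CSA-binding protein cyclophilin A, differed from them by -1.49 and -1.04, while the calcium sensor gene Stim1 differed by 1.02 and 1.12.

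Longer transcripts were higher in C6. With each gene assigned its longest annotated transcript, the median log2 difference between C6 and C3 was -1.31 for genes under 1 kb, -0.67 at 1 to 2 kb, -0.04 at 2 to 4 kb, 0.59 at 4 to 8 kb and 1.08 over 8 kb. Against C5 the same medians ran from -1.01 to 0.78. Across genes, which are not independent replicates, Spearman's rho of length with the difference was 0.708 against C3 and 0.585 against C5. Against all other CD4+ cells it was 0.279 in the saline pools and 0.588 in the 5 mg/kg pools. Ptprc, which encodes CD45, shows the step: in the saline pools it was at 2294 ± 185 CPM in C6 and 2195 ± 28.3 outside, and in the 5 mg/kg pools at 2980 ± 151 and 1362 ± 19.9 (SD, n = 3). Many genes of ribosomes and respiration are short and many genes of chromosome segregation are long, so length and function move together in these lists, and the part of each was not tested.

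**Figure D3:**
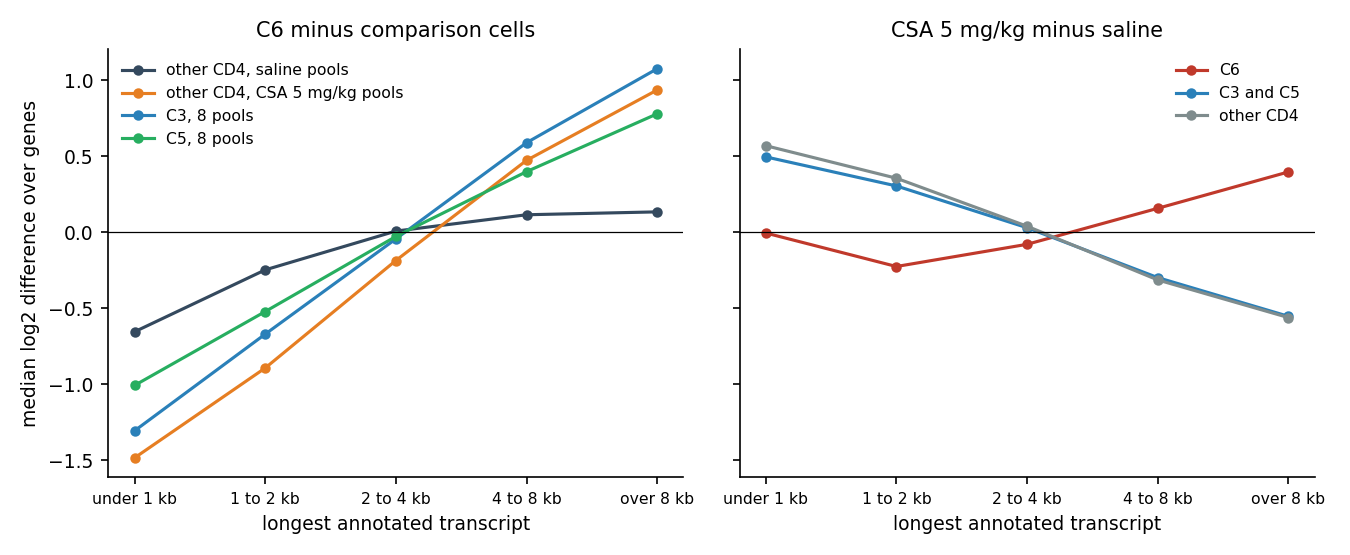
Log2 difference or change of genes grouped by the length of their longest annotated transcript (kb). Points are medians of a length group; C6 against C3 runs from -1.31 under 1 kb to 1.08 over 8 kb, and the change with CSA (5 mg/kg) runs from 0.57 to -0.56 in other CD4+ cells and from -0.01 to 0.40 in C6.

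Within C6, replication genes were lower with CSA at 5 mg/kg than with saline. Mitochondrially encoded genes and some activation and homing receptor genes were higher. In edgeR's quasi-likelihood test 601 of 5074 genes (11.8%) passed an adjusted p of 0.05, 318 higher (6.27%) and 283 lower (5.58%). With only cells under 5% mitochondrial UMIs this was 140 genes, and with cells of 2000 to 5000 UMIs 311. Removing 1 pool at a time gave as few as 303 genes (without replicate 1 of 5 mg/kg), 352 without saline replicate 3, 366 without replicate 3 of 5 mg/kg, and 398 and 399 without saline replicates 2 and 1. The median over all genes was 0.02.

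Of 68 replication genes 19 fell and none rose (median -0.42). Tk1, the thymidine kinase that salvages thymidine in S phase, was at 234, 220 and 216 CPM with saline, at 96.1, 146 and 83.5 with 5 mg/kg and at 281 and 207 with 50 mg/kg. Its 5 mg/kg pools lay below all others, and the change was -1.02 ± 0.19 (SE, edgeR adjusted p = 0.000753). Pcna, the sliding clamp of DNA polymerase, was at 233, 190 and 189 CPM with saline and at 120, 146 and 77.6 with 5 mg/kg, a change of -0.79 ± 0.20 (adjusted p = 0.00898). Mcm7 went from 293, 289 and 292 to 154, 161 and 137 CPM and Mcm3 from 433, 396 and 406 to 235, 247 and 251, changes of -0.94 and -0.75. Orc6 of the origin complex changed by -1.02, the histone chaperone gene Asf1b by -0.90 and the primase gene Prim1 by -0.80. In each of these 7 genes every 5 mg/kg pool lay below every saline pool. With 50 mg/kg no replication gene passed (median -0.05); at that dose Tk1 was 0.12 and Mcm7 -0.10, with adjusted p of 0.916 for both.

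Mitosis genes split. Of 69, Aspm, Ncapg2, Mki67 and Cenpf rose, by 0.78, 0.57, 0.55 and 0.47, and Nusap1, Cdk1, Cdc20, Hmgb2, Kif22, Bub3 and Ube2s fell, by 0.67, 0.63, 0.63, 0.60, 0.58, 0.54 and 0.39 on the log2 scale (median of the list -0.20). Mki67 was at 2685, 2721 and 2664 CPM with saline and at 4219, 4209 and 3371 with 5 mg/kg, with no overlap (adjusted p = 0.0016), and kept this call in 19 of 19 alternatives. Nusap1, which bundles spindle microtubules, was at 328, 279 and 328 and then 183, 222 and 179 CPM (adjusted p = 0.00508). Top2a was at 1588, 1478 and 1462 and then 1307, 1336 and 1271 CPM, a change of -0.21 that did not pass (adjusted p = 0.184). With 50 mg/kg Cks2, a cofactor of cyclin-dependent kinases, and Arhgap11a passed, at 1.07 and 1.15.

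**Figure D4:**
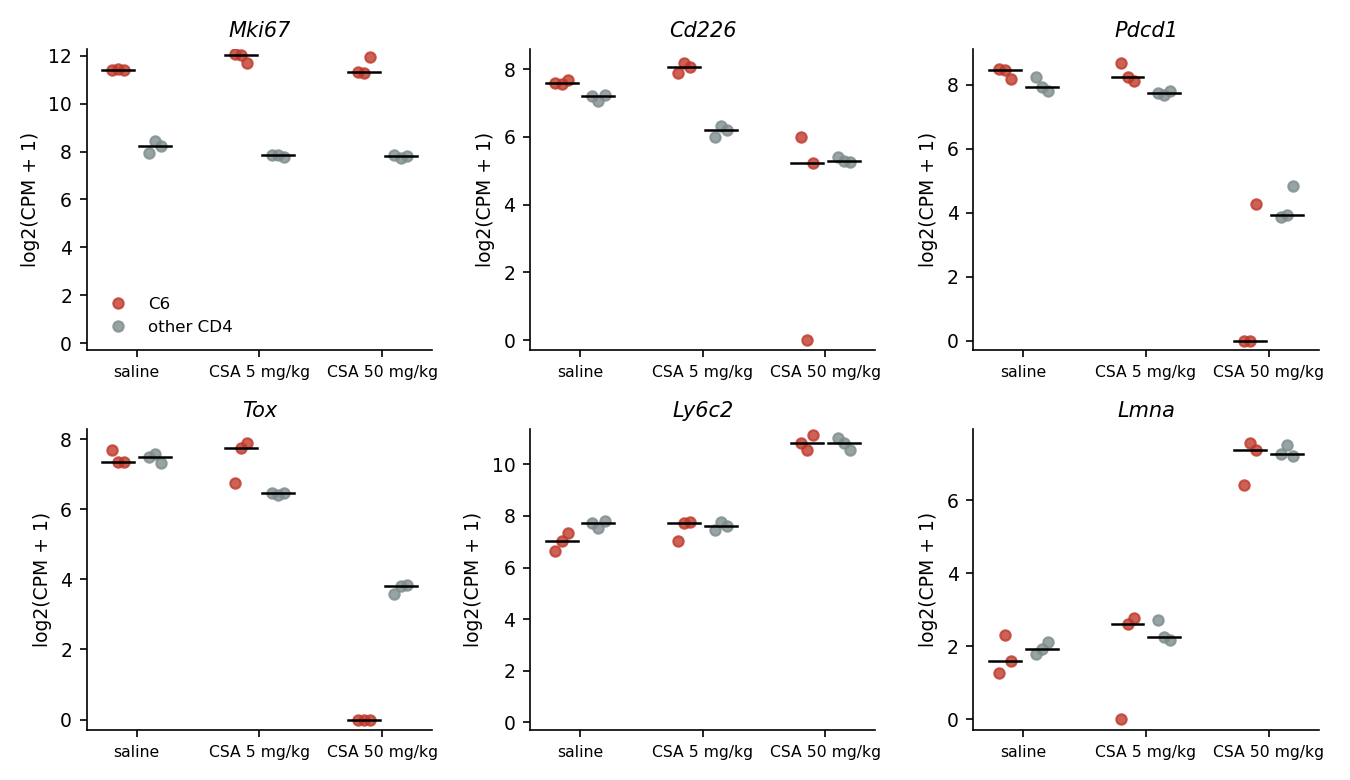
Levels of Mki67, Cd226, Ly6c2, Lmna, Pdcd1 and Tox as log2(CPM + 1), without TMM scaling, by dose. Each point is 1 of the 9 pools (C6 in red, other CD4+ cells in grey) and the line is the median of a group; for Pdcd1 the C6 pools at 50 mg/kg lie at 0, 0 and 4.28 against 8.19 to 8.48 with saline, and for Ly6c2 at 10.6 to 11.1 against 6.63 to 7.32.

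Every one of the 13 protein genes of the mitochondrial genome rose with 5 mg/kg, by 0.97 (mt-Nd6) to 2.21 (mt-Nd3), and 11 passed with 50 mg/kg. mt-Co1, a catalytic subunit of complex IV, was at 3495, 3785 and 3990 CPM with saline, 9134, 7969 and 9200 with 5 mg/kg and 8862 and 10420 with 50 mg/kg. Every CSA pool lay above every saline pool, with changes of 1.22 ± 0.10 and 1.36 ± 0.12 (adjusted p = 1.97e-09 and 4.73e-09). mt-Nd3 was at 81.3, 112 and 90.5 CPM with saline, 524, 338 and 465 with 5 mg/kg, and 281 and 150 with 50 mg/kg. mt-Co3 and mt-Nd4l changed by 1.41 and 1.28 at 5 mg/kg. Limited to cells under 5% mitochondrial UMIs, a choice that itself caps these genes, the 5 mg/kg changes were 0.63 for mt-Co1, 0.67 for mt-Co3, 1.22 for mt-Nd3 and 0.44 for mt-Nd4l, the last of which no longer passed (adjusted p = 0.057). Nuclear OXPHOS genes did not follow: of 78, 6 rose and 11 fell with 5 mg/kg (median -0.09), among them Uqcrc2 of complex III, which fell by 0.97, and Ndufb4 of complex I, which rose by 0.87. With 50 mg/kg only Ndufb11 passed, at 0.98.

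Of 27 activation receptor genes 7 rose and none fell with 5 mg/kg (median 0.29). They were Slamf7 (0.78), Il2rg (0.70), Cd44 (0.57), Il12rb2 (0.57), Cd5 (0.52), Ifngr1 (0.48) and Cd226 (0.45). The call of Cd44 was lost in 12 of 19 alternatives, among them each saline and 5 mg/kg pool left out but saline replicate 2. Il2rg, the common gamma chain through which IL-2, IL-7 and IL-15 signal, was at 1148, 1052 and 993 CPM with saline and at 1816, 1689 and 1659 with 5 mg/kg, with no overlap (0.70 ± 0.11, adjusted p = 0.000118). Cd226 was at 188, 187 and 201 CPM with saline and at 235, 287 and 268 with 5 mg/kg, but its call (0.45 ± 0.15, adjusted p = 0.0435) was likewise lost in 12 of 19, among them each saline and 5 mg/kg pool left out. With 50 mg/kg Cd226 was at 64.8 and 37.6 CPM, below the other pools (-1.93 ± 0.49, adjusted p = 0.0271), from 5 UMIs; over summed UMIs it was 3.96 times lower (exact 95% counting interval 1.69 to 12.2). Without either of the 2 pools of this group Cd226 did not pass. Inhibitory receptors rose in 3 of 12 cases with 5 mg/kg, Cd96 (0.88), Ctla4 (0.77) and Havcr2 (0.65). Of 13 homing genes 5 rose, Ccr2 (0.79) and the integrin chains Itgb1 (0.64), Itgb7 (0.52), Itga4 (0.51) and Itgal (0.45), which serve entry into inflamed tissue and, for the pair of Itga4 and Itgb7, the gut.

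Members of the drug's own pathway moved in both directions with 5 mg/kg. Of 15 calcineurin and NFAT genes, Ppp3ca, the catalytic subunit of calcineurin, rose from 86.9, 75.4 and 98.5 CPM to 144, 151 and 137 (0.73 ± 0.19, adjusted p = 0.0135), and Stim1 rose by 0.53. Ppia, the target that CSA binds, fell from 3344, 3073 and 3114 to 2172, 2480 and 2291 CPM (-0.46 ± 0.10, adjusted p = 0.003), and the calmodulin gene Calm2 fell by 0.63. None of the 15 passed with 50 mg/kg, where Ppia was at 3134 and 2803 CPM. Of 21 factors induced by the TCR only Nfkbia passed with 5 mg/kg (-0.60), and Ifng, at 96.7, 59.7 and 85.4 CPM with saline and 86.5, 40.3 and 101 with 5 mg/kg, did not differ beyond its spread (adjusted p = 0.888). None of 18 interferon-stimulated genes passed at either dose. Among glycolysis genes Tpi1, Pgk1 and Pkm fell by 0.63, 0.59 and 0.52 and the glucose transporter gene Slc2a3 rose by 0.82. Il7r and Klrc1 (NKG2A) rose by 0.72 and 1.07, Trp53 fell by 0.58, and Cflar, an inhibitor of caspase-8, rose by 0.73. Stat5b, which carries IL-2 signals, fell by 0.89, and Gzmb rose by 0.62, from 1015, 718 and 792 to 1408, 1074 and 1390 CPM.

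Crybg3 had the largest rise at 5 mg/kg among genes outside the lists with at least 50 CPM. It went from 33.6, 49.0 and 45.2 to 139, 166 and 107 CPM (1.67 ± 0.23, adjusted p = 2.06e-05), and stayed at 195 and 132 with 50 mg/kg. Herc2, a ubiquitin ligase, went from 71.5, 89.1 and 82.4 to 149, 212 and 227 CPM, Osbp, a sterol carrier, from 23.8, 38.2 and 39.2 to 67.3, 90.7 and 95.5, and the unnamed transcript Gm39323 from 30.8, 41.1 and 42.2 to 91.3, 85.7 and 113. The calprotectin genes S100a8 and S100a9 changed by 1.46 and 1.41, and the complement genes C1qb and C1qc by 2.22 and 3.17, so that 4 of the 6 myeloid genes tested rose; their summed range in each group is given above, and the part of myeloid RNA in these changes was not tested. Without replicate 1 or 2 of 5 mg/kg neither S100a8 nor S100a9 passed. The fallers included Gart of purine synthesis (-1.60), the linker histone gene Hist1h1a (-1.32), Tars (-1.21), Ppp1r7 (-1.19), the splicing factor gene Bcas2 (-1.18), the repair gene Rdm1 (-1.17), A430005L14Rik (-1.16), Psat1 of serine synthesis (-1.09) and Hras (-1.09). The call of A430005L14Rik was lost in 8 of 16 alternatives, among them each pool of saline and replicates 1 and 3 of 5 mg/kg left out, and that of Hras in 7 of 17, among them saline replicates 2 and 3 and the same 5 mg/kg pools. Ppp1r7 did not pass without replicate 1 of 5 mg/kg nor Rdm1 without replicate 2, and Psat1 was at -0.60, which did not pass, in cells of 2000 to 5000 UMIs. Gart was at 88.3, 108 and 119 CPM with saline and at 38.4, 25.2 and 41.8 with 5 mg/kg. Of 26 replication-dependent histone genes 7 fell, 5 of them linker histones (Hist1h1a to Hist1h1e), and Hist1h2bj and Hist1h2ae rose. Of 81 ribosomal protein genes 13 rose and 17 fell, for example Rpl38 by 0.95 and Rpl7, which fell by 0.82.

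The response of C6 to 5 mg/kg differed from that of the other CD4+ cells of the same pools for many genes. The difference of the change, an interaction in edgeR with pool as a block, passed for 2517 of 10408 genes (24.2%), 1019 higher in C6 (9.79%) and 1498 lower (14.4%). With scaling by library size the split was 2046 higher and 559 lower, since the median of all genes moved from -0.08 to 0.34, so gene groups are read against these medians. Nuclear OXPHOS genes were lower in C6 for 70 of 87 and higher for none (median -0.91, and -0.50 with library scaling), ribosomal protein genes for 80 of 89 (median -0.99), and replication genes for 50 of 72 (median -1.02, and -0.61 with library scaling). Uqcrc2 changed by -0.97 in C6 and by 0.36 outside, and Rpl7 by -0.82 and 0.59. Tk1 changed by -1.02 in C6 and by 0.79 outside, a difference of -1.92 ± 0.20 (adjusted p = 2.76e-16), and Cdk1 by -0.63 and 0.59. Of 70 mitosis genes 41 were lower in C6 and 4 higher, Aspm among the latter (0.78 in C6, -0.36 outside).

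Activation receptor genes leaned the other way. Of 28 activation receptor genes 11 had a higher change in C6 and 2 a lower one (median 0.33, and 0.74 with library scaling). Of 21 homing genes, integrin chains included, 5 had a higher change and 1 a lower one, with a median of 0.07 against -0.08 over all genes. Itga4 was at 1319, 1498 and 1436 CPM with saline and 2201, 2021 and 1850 with 5 mg/kg in C6, a rise of 0.51, against -1.06 in the other cells, a difference of 1.48 ± 0.11 (adjusted p = 1.3e-28). Cd226 changed by 0.45 in C6 and by -0.66 outside, a difference of 1.03 ± 0.17 (adjusted p = 1.72e-07). Havcr2 changed by 0.65 and -0.49, Nfatc1 by 0.26 and -0.59, and Ptprc by 0.61 and -0.58. Ppia changed by -0.46 in C6 and 0.55 outside, and Calm2 by -0.63 and 0.49. The 13 mitochondrial genes all had a higher change in C6. Under cells of 2000 to 5000 UMIs 1345 genes passed, 534 higher and 811 lower.

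The change in C6 also differed for many genes from that in the cells of C3 and C5, which cycle too. There 1797 of 9116 genes passed (19.7%), 899 higher in C6 (9.86%) and 898 lower (9.85%), or 1464 higher and 425 lower with library scaling, whose median over all genes was 0.29 against 0.02. Macf1, a large linker of actin and microtubules, changed by 0.85 in C6 (383, 425 and 419 to 663, 847 and 716 CPM) and by -1.24 in C3 and C5, a difference of 2.10 ± 0.16 (adjusted p = 4.43e-15). Tk1 differed by -1.80, Mcm7 by -1.45, Itga4 by 1.80 and Cd226 by 1.23. In the other CD4+ cells, as in C3 and C5, the change with 5 mg/kg fell with transcript length, from 0.57 under 1 kb to -0.56 over 8 kb and from 0.50 to -0.55. In C6 the medians were -0.01 under 1 kb, -0.23 at 1 to 2 kb and 0.40 over 8 kb, and rho across genes was 0.368, 0.226 in cells under 5% mitochondrial UMIs and 0.403 in cells of 2000 to 5000 UMIs.

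Few C6 cells were read with CSA at 50 mg/kg, with 101593 UMIs in both pools tested against 2694033 with saline. Fewer counts thus lay behind each gene. Of 5074 genes 140 passed (2.76%), 83 higher (1.64%) and 57 lower (1.12%). With library scaling the split was 68 higher and 73 lower. Without replicate 1 of this group 82 genes passed, without replicate 3 54, and with cells under 5% mitochondrial UMIs 55. Fewer genes can pass at this depth, and a gene that did not is not shown to be unchanged.

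Of 12 genes tested from the list of inhibitory receptors and the Tox factors, Pdcd1 and Tox fell at 50 mg/kg and none rose. Of 27 activation receptor genes 3 fell, Cd226, Slamf1 and Il18r1, and 3 rose. Pdcd1, which encodes PD-1, was at 350, 350 and 286 CPM with saline, 404, 297 and 280 with 5 mg/kg, and 0 and 18.8 with 50 mg/kg. It had 892 UMIs with saline and 1 with 50 mg/kg, a ratio of 33.6 (exact 95% counting interval 6.02 to 1330, edgeR adjusted p = 0.000115), and held in 19 of 19 alternatives. Tox, the factor of exhausted T cells, was at 202, 161 and 160 CPM with saline and at 106, 212 and 239 with 5 mg/kg, and had no UMI in any 50 mg/kg pool, at least 5.87-fold lower against a floor of 3 UMIs over the group (adjusted p = 0.00481). Slamf1 went from 407 UMIs to 1 (ratio 15.3, interval 2.74 to 608, adjusted p = 0.012), and the cytokine gene Il21 from 226 to 0, at least 2.84-fold lower (adjusted p = 0.0272). In the other CD4+ cells these changed by -3.20 for Pdcd1, -3.46 for Tox, -1.94 for Slamf1 and -3.91 for Il21 on the log2 scale, and the difference between C6 and the others did not pass for any of the 4 (adjusted p of 0.27 to 0.627). Il18r1 fell by 1.69. Without replicate 3 of this group neither Tox nor Slamf1 passed, and Il21 lost its call in 5 of 18 alternatives, among them either pool of this group left out.

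Cytotoxic and other genes at 0 followed. Gzma was at 266, 330 and 485 CPM with saline and at 586, 302 and 471 with 5 mg/kg, and had no UMI in both 50 mg/kg pools of the test, at least 12.7-fold lower (adjusted p = 0.00217). All 7 Gzma UMIs of this group lay in replicate 2, which was left out, and over the 9 pools the ratio was 6.57 (interval 3.18 to 16.4). Hist1h3f (501 UMIs with saline), Plac8 (285), Tnfsf8 (255), Zmiz2 (223) and Ifitm2 (175) also had none in both pools, at least 6.30, 3.58, 3.21, 2.80 and 2.20-fold lower, with 2 UMIs each of Hist1h3f and Plac8 in replicate 2. Plac8, Tnfsf8, Zmiz2 and Ifitm2 no longer passed with either pool of this group left out, nor did Ifitm2 without saline replicate 1 or 3, and Gzma did not pass in cells under 5% mitochondrial UMIs. Serpinb9, which shields cells from granzyme B, went from 243, 309 and 310 to 86.5 and 56.4 CPM (-2.04 ± 0.44, adjusted p = 0.00777). Gzmb passed in the other direction (1.28 ± 0.26) at 3285 and 903 CPM, a spread that overlaps saline. Of 26 histone genes 11 fell and none rose (median -1.36). In the other CD4+ cells Gzma, Hist1h3f and Plac8 changed by -2.19, -3.61 and -1.35, as log2 ratios of summed UMIs. Tnfsf8, Zmiz2 and Ifitm2 changed there by -3.54, -1.04 and -2.23. The change of 52 histone genes tested against the other cells was higher in C6 for 3 and lower for 0, beside 1.5% and 6.33% of all genes.

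Ly6c2 had the largest rise at 50 mg/kg among genes with at least 50 CPM on average. It encodes Ly6C, a surface marker of effector and memory T cells, and was at 96.7, 127 and 157 CPM with saline, 130, 212 and 221 with 5 mg/kg, and 1837 and 2295 with 50 mg/kg (a log2 change of 4.0 ± 0.20, adjusted p = 1.62e-14). The other CD4+ cells changed by 3.51, and the difference of 0.27 ± 0.17 did not pass (adjusted p = 0.418). Lmna, which encodes lamin A, had 7 UMIs with saline and 13 with 50 mg/kg of 2694033 and 101593 UMIs in all, and changed by 5.52 in C6 (adjusted p = 0.00199) and by 6.06 outside. The chemokine receptor gene Ccr2 rose by 1.66. Without replicate 1 its change was 0.88 and did not pass. Itgb2 and Itgb7, beta chains of leukocyte integrins, rose by 1.08 and 0.88, and Cd28, Cd6 and Cd5 by 1.04, 1.06 and 0.99.

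Of 21 genes tested from the list named quiescence and memory, Ly6c2, Lmna and Txnip rose at 50 mg/kg and none fell. Ly6c2 and Lmna rose in the other CD4+ cells as well. Of 21 factors induced by the TCR Dusp2 and Egr1 passed. Tcf7 had 310 UMIs with saline and 1 with 50 mg/kg, a ratio of 11.7 (exact 95% counting interval 2.08 to 463), and did not pass (edgeR adjusted p = 0.135). Dusp2, a phosphatase that dampens MAP kinases, went from 161, 153 and 194 to 757 and 414 CPM (1.76 ± 0.26, adjusted p = 0.000117), and Txnip, a brake on glucose uptake, from 161, 134 and 187 to 346 and 621 (1.61 ± 0.29, adjusted p = 0.00136). Without replicate 1 of this group the change of Dusp2 was 1.23 and did not pass. Klf3, Satb1 and Klf6 rose by 1.47, 1.40 and 1.16. S100a4 passed at 1.87, but with cells of 2000 to 5000 UMIs its change was -0.046, and without replicate 1 it was 1.55 and did not pass. Egr1, an immediate early gene, passed at 2.46 but was at 86.5 and 433 CPM, and without replicate 3 its change was 0.74 and did not pass. The 27 Egr1 UMIs of C6 at this dose lay in 5.88% of its cells, while 13.8% of C6 cells held an Egr1 UMI with saline. Mctp2, Trp53i13 and D16Ertd472e changed by 2.06, 1.89 and 1.63. Trp53i13 lost its call in 8 of 16 alternatives, among them saline replicates 1 and 2 left out, and Mctp2 in 5 of 18, for both with either pool of this group left out, and D16Ertd472e was 1.28 without replicate 3 and did not pass. Pkm and Tpi1 of glycolysis fell by 0.75 and 1.38.

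Against other CD4+ cells, the change at 50 mg/kg differed for 815 genes (7.83%), 156 higher in C6 (1.5%) and 659 lower (6.33%), or 401 higher and 106 lower with library scaling, where the median of all genes was 0.14 in place of -0.44. Replication genes were lower in C6 for 27 of 72 (median -1.04, and -0.45 with library scaling), nuclear OXPHOS genes for 30 of 87 (median -0.99, and -0.39), and 11 of 13 mitochondrial genes were higher. Itga4 again differed, by 1.55 ± 0.17 (adjusted p = 3.22e-15), with 0.34 in C6 and -1.46 outside. Ccl5 rose in C6 by 0.87 and by 1.76 outside, a difference of -1.14 (adjusted p = 7.92e-08), and Serpinb9 differed by -1.80. Cd226 did not differ in this way (-0.71, adjusted p = 0.597).

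With saline, the share of C6 cells in shared clonotypes differed from that of C3 and C5 by less than the spread between pools. Among 469 clonotypes of C6 cells, 124 had more than 1 CD4+ cell in their pool. With saline, 43.8%, 36.2% and 30.9% of C6 cells with a TCR shared it with another CD4+ cell of the pool, 37.0% ± 6.50, beside 38.1% ± 13.3 in C3, 37.3% ± 16.5 in C5 and 23.8% ± 1.73 in C0. With 5 mg/kg the C6 pools were at 23.1%, 22.2% and 17.6%, below all saline pools, and the only 50 mg/kg pool with at least 10 such cells was at 30.0%. The trend did not pass (exact permutation p = 0.2, adjusted 0.2), and sharing depends on how many cells and TCRs were read, which also fell.

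In the saline pools, 208 cells outside C6 shared a clonotype with a C6 cell. Of them 35.1% lay in C0, an effector cluster in the study's terms, which held 26.3% of all clonotyped cells outside C6. C5 held 16.8% of them against 7.82%, and C3 13.9% against 5.58%. C4, which the study describes by follicular helper genes, held 8.65% against 20.7%, and C2 5.77% against 13.5%. None lay in C9, which held 2.39%. With 5 mg/kg there were 33 sharing cells, 24.2% of them in C2 against 24.6% of all clonotyped cells outside C6, 21.2% in C1 against 18.6%, 18.2% in C3 against 13.7%, 15.2% in C0 against 13.6% and 9.09% in C5 against 7.51%. With 50 mg/kg there were 12, of which 5 lay in C5 and 4 in C3. Cells of 1 clone are not independent, so these shares are given without a test.

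**Figure D5:**
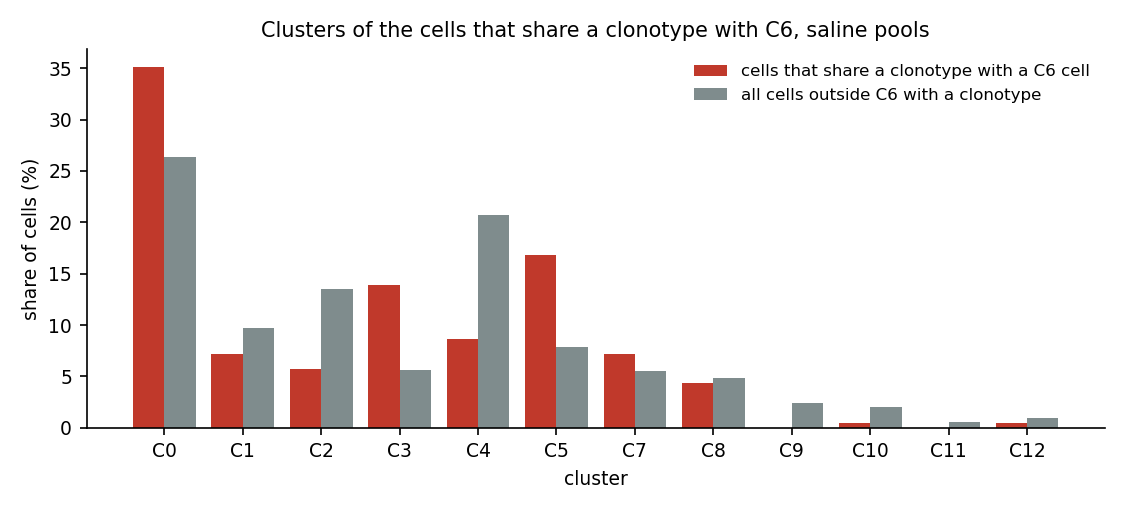
Clusters of cells outside C6 that share a clonotype with a C6 cell (red) and of all clonotyped cells outside C6 (grey), saline pools, in percent of each set. C0 holds 35.1% of the 208 sharing cells against 26.3% of all, and C4 holds 8.65% against 20.7%.

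Both of the largest C6 clones came from saline replicate 1, and each had 6 C6 cells of 26 CD4+ cells, with 10 in C0. Their CDR3 regions, the part of the TCR that meets the peptide, are shown with another pair from the same pool, clones 6 and 7, which had 3 C6 cells of 7 each. The sequences are those in the authors' table, 5′ to 3′, in lower case throughout.
Clone 1 alpha (TRAV4D-4, TRAJ22): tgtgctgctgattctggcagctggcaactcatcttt
Clone 1 beta (TRBV15, TRBJ2-3): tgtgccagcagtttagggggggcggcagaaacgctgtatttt
Clone 2 alpha (TRAV10N, TRAJ12): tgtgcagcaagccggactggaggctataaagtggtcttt
Clone 2 beta (TRBV10, TRBJ2-7): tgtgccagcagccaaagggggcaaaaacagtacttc
Clones 6 and 7 alpha (TRAV10, TRAJ9): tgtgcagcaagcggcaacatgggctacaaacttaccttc
Clone 6 beta (TRBV26, TRBJ1-1): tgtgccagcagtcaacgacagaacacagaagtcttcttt
Clone 7 beta (TRBV26, TRBJ1-3): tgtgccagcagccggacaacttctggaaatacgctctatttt

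Clones 6 and 7 had the same alpha sequence to the base and different beta sequences that use the same V gene, while clones 1 and 2 shared no chain. Clone 4, in saline replicate 3, was the largest found in C6 alone, with 4 cells, and carried 2 alpha chains. With 5 mg/kg 20 of 106 C6 clonotypes had more than 1 cell, and with 50 mg/kg 8 of 24.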

How the data were processed

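Spleen CD4+ T cells of 9 pools (3 per treatment, 2 mice each) were analysed. The authors deposited UMI counts per gene and cell from 10x 5′ libraries, with antibody counts; the submitters' processing notes name mm10, Cell Ranger (version not given) and Seurat 3.0.0. The authors also deposited the mitochondrial fraction of each cell and score columns (glycolysis, TEX, TSCM, pseudotime). Cell filters, clusters, TEa marks and clonotypes were theirs; CD8+ cells were not used, and doublets were not called anew.

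Counts of C6 were summed per pool and tested in edgeR 4.0.16 (quasi-likelihood, TMM, filterByExpr; R 4.3.3) over the 8 pools with at least 10 C6 cells, and differences of the change with pool as a block. P-values were Benjamini-Hochberg adjusted over all genes tested, with a threshold of 0.05. Pool shares were compared by exact two-sided permutation tests (Python 3.11.15, scipy 1.17.1). Summed C6 UMIs per pool ran from 21078 to 1008360. Intervals and floors (3 UMIs) cover counting error only. Alternatives were DESeq2 1.42.0, library size scaling, no filter, all 9 pools, the replicate block, TEa cells, cell filters and each pool left out; genes to which DESeq2 gave no adjusted p were not counted as lost there.

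Genes named per dose were the 10 largest rises and falls past the threshold with at least 50 CPM and no overlap of pools, the 5 largest differences of the change each way, the 20 highest and 10 lowest against other CD4+ cells, and members of 24 lists. Some genes that met these rules are not reported here. Genes singled out for their dose or length pattern (Ptprc, Macf1, Itga4) were in part chosen after their values were seen. The members and lists were chosen with earlier results of these data known. The procedure was tested on simulated data.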

Additional observations from a re-analysis of the deposited data

Results flagged for a closer look

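At 5 mg/kg the change in C6 differed from that in other CD4+ cells of the same pools for several genes by the edgeR interaction test, and the differences named were among the largest. Fosb, an AP-1 subunit, differed by 1.98 (0.80 in C6, -1.24 outside, adjusted p = 1.88e-08). The kinase gene Lmtk2 differed by 1.96 (1.18 and -0.86, adjusted p = 2.79e-08), Smad3 of TGF-beta signalling by 1.78 (0.81 and -1.09, adjusted p = 1.41e-06), Crybg3 by 1.70 (1.67 and -0.14, adjusted p = 3.2e-07) and Hivep2 by 1.68 (0.76 and -1.03, adjusted p = 8.03e-12). In the other direction Tk1 differed by -1.92 (-1.02 and 0.79), Mxd3, a MYC antagonist, by -1.78 (-0.78 and 0.89, adjusted p = 1.09e-05), Bcas2 by -1.78 (-1.18 and 0.50, adjusted p = 1.38e-09) and Hras by -1.72 (adjusted p = 7.39e-06). Each of these kept its direction and its call with cells under 5% mitochondrial UMIs, and each but Mxd3 (-0.48) with cells of 2000 to 5000 UMIs.

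At 50 mg/kg the same test set apart Mctp2 (2.50, adjusted p = 0.000711), Egr1 (2.46, adjusted p = 5.46e-07), Tnf (2.31, adjusted p = 0.000328), Helz2 (2.30, adjusted p = 0.00172) and Tapt1 (2.19, adjusted p = 0.00427). Egr1 had UMIs in 5.88% of C6 cells at this dose, against 13.8% with saline. Without replicate 3 of 50 mg/kg the difference was 0.82 for Egr1, 1.19 for Tnf, 2.43 for Mctp2 and 2.03 for Tapt1, and without replicate 1 it was 2.16 for Helz2, none of which passed, and with cells under 5% mitochondrial UMIs it was 0.40 for Helz2. Genes at or near 0 in C6 are given as log2 ratios of summed UMIs, C6 minus other CD4+ cells. With 3 UMIs set for C6 at 50 mg/kg these were -1.47 for Gzma, -0.49 for Plac8 and -0.45 for Zmiz2. Without a set value they were -3.72 for Spc25, a kinetochore subunit, and -3.65 for C1qbp, a mitochondrial matrix protein. Spc25 and C1qbp each rest on 1 C6 UMI at 50 mg/kg, against 222 and 379 with saline. The exact counting interval of the fall in C6 was 1.49 to 332-fold for Spc25 and 2.55 to 566-fold for C1qbp. Over all 9 pools their log2 differences were -3.98 and -2.96. The differences of Gzma and Plac8 did not pass with all 9 pools. Over all alternatives the call was lost in 2 of 14 for Gzma, 7 of 14 for Plac8 and 6 of 14 for Zmiz2, for the last 2 with either pool of 50 mg/kg left out, and in 1 of 13 for Spc25, with cells of 2000 to 5000 UMIs. In those cells the calls of Mctp2, Tnf and Helz2 were lost too, and that of Tapt1 with cells under 5% mitochondrial UMIs.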

How the results depend on the processing

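The C6 share of CD4 cells and the C6 share of cycling cells kept their direction and call under all alternatives run; leaving out 1 pool, the difference of 50 mg/kg from saline ran from -10.0 to -9.43 and from -48.3 to -45.2 percentage points. The C6 mitotic share of cell cycle UMIs ran from 2.61 to 9.33 points, and its trend passed without replicate 3 of 50 mg/kg (9.33). C6 cells in shared clonotypes ran from -10.0 to -3.55 points and were -18.3 when counted among C6 cells only. Without replicate 1 of 50 mg/kg no value was left. Sharing among C6 cells depends on how many of them had a TCR. There were 105 to 149 per saline pool, 34 to 39 with 5 mg/kg and 10 in the 50 mg/kg pool used. Genes called within C6 at 5 mg/kg were 387 with DESeq2, 395 with the replicate block, 140 under 5% mitochondrial UMIs, 311 at 2000 to 5000 UMIs and 303 to 701 with 1 pool left out. At 50 mg/kg they were 202 with DESeq2, 214 without a filter, 92 at 2000 UMIs or more, 55 under 5% mitochondrial UMIs and 54 to 150 with 1 pool left out. Differences of the change at 5 mg/kg were 1675 with DESeq2, 1570 under 5% mitochondrial UMIs, 1345 at 2000 to 5000 UMIs and 1803 to 2628 with 1 pool left out; at 50 mg/kg 507 with library scaling, 527 with DESeq2, 388 under 5% mitochondrial UMIs and 387 to 845 with 1 pool left out; against C3 and C5 1192, 1061 and 596 in the first 3 of these settings and 1245 to 1914. For C6 against other CD4 cells, genes higher in every pool were 1705 with library scaling and 2976 in the saline pools alone. S100a4 at 50 mg/kg was -0.046 and Gart against C3 and C5 0.37 with cells of 2000 to 5000 UMIs. The cell limits on mitochondrial share and on 2000 to 5000 UMIs, second hashtags and TCRs with both chains were added after seeing the data. The causes were not tested. Same-numbered pools correlated at -0.09 to 0.02, so the replicate number was not taken as a pairing. The 34 C6 cells at 50 mg/kg limit what could be detected there.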

Other observations

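Per-cell values that the authors computed also described C6. Their pseudotime averaged 35.1, 34.6 and 35.1 in C6 over the pools of saline, 5 mg/kg and 50 mg/kg, against 15.7, 15.5 and 18.3 in the other CD4+ cells and 30.6, 36.3 and 35.4 in C3 and C5. Their glycolysis score in C6 was 0.0721, 0.0374 and 0.0233, the TEX score 0.112, 0.0885 and 0.0816, and the TSCM score -0.198, -0.158 and -0.115. The surface CD4 antibody count of C6 cells was 516, 671 and 428 UMIs as the mean of pool medians. Ribosomal protein genes took 9.56%, 8.82% and 10.2% of C6 UMIs, against 15.7%, 20.9% and 18.8% in C3 and C5. Replication-dependent histone genes summed to 13508, 9733 and 5490 CPM in C6, against 6390, 3759 and 1610 in the other CD4+ cells.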
